A study of Drosophila melanogaster with 24 samples.

Results

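BEAF, a DNA-binding protein of chromatin domain boundaries, was mapped by CUT&RUN in whole ovaries of Drosophila melanogaster, and the regions described here are the intervals of the BEAF list on the X chromosome that share no base with the intervals of the transcription factor Stwl. An X-linked BEAF interval was taken when it overlapped no Stwl interval of WT ovaries and none of bam GKD ovaries, with 1 shared base enough to leave it out. Of the 1577 BEAF intervals on X, 438 met this rule, and they are 438 of the 5092 intervals of the whole BEAF list. The regions were thus chosen by the interval positions of all 3 lists, so the lack of Stwl at these regions and their distance from it are descriptions and carry no test.

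The series holds 24 samples of ovary tissue, and 3 interval lists were used, each of 1 sample: BEAF in WT, Stwl in WT and Stwl in bam GKD. By the labels, the WT tissue stands for differentiated stages, and the bam GKD tissue is enriched in stages before differentiation. The Stwl antibody was made in a laboratory, per the labels, and the BEAF antibody came from a public bank (DSHB). The labels name neither a driver of the bam GKD genotype nor the age of the flies, and whole ovaries hold germline and somatic cells together. The labels also name a BEAF sample of stwl GKD ovaries, which was not analysed here, and every BEAF value below is of WT. With 1 list per group no value has a replicate error, intervals are not replicates, and every test compares these lists, not the genotypes. The exact 95% intervals given with shares cover counting error only. These 95% intervals and the tests treat BEAF intervals as independent. Many BEAF intervals lie close together, so the counting error may be understated. With BEAF intervals joined across gaps of up to 1000 bp, 323 regions met the rule.

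In CUT&RUN an antibody brings a nuclease to the bound protein, and the DNA cut out around it is sequenced. BEAF is made from the BEAF-32 gene, binds clusters of a short CGATA motif, and is known from boundary elements that keep the regulation of neighbouring genes apart. In fly cells it is found mostly close to the promoters of housekeeping genes, often between a pair of genes that start back to back. Stwl, the product of stonewall, is a nuclear protein needed to keep germline stem cells and to make an oocyte.

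X carried more BEAF intervals per length than the large autosomes, and a larger share of them lacked Stwl. There were 68.0 BEAF intervals per Mb of X against 31.1 per Mb of arms 2L, 2R, 3L and 3R together, where the 4 single arms ranged from 28.8 to 33.3. Regions without Stwl came to 18.9 per Mb of X and 6.20 per Mb of the large autosomes. X had fewer protein-coding genes per Mb (94.8 against 107). The 438 regions were 27.8% of BEAF intervals on X (95% interval 25.6 to 30.1), against 20.0% (18.6 to 21.4) on the large autosomes, where the arms ranged from 17.7% on 3L to 23.4% on 3R. Over all main arms 22.0% of BEAF intervals lacked Stwl, and on chromosome 4 it was 4 of 126. These shares restate the rule and were not tested.

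The other X intervals split unevenly between the Stwl lists. Both Stwl lists reached 883 of the 1577 (56.0%), Stwl of WT alone reached 110 (6.98%) and Stwl of bam GKD alone reached 146 (9.26%). On the large autosomes the order of the last pair was the other way, with 390 of 3380 (11.5%) reached by WT alone and 206 (6.09%) by bam GKD alone. Stwl intervals filled 11.0% of X in WT, 20.5% in bam GKD and 22.6% with both lists joined.

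Along X the regions were spread over the arm and thinned out at its base. In bins of 1 Mb they made up between 12.3% (17 of 138 BEAF intervals, from 8 to 9 Mb) and 52.5% (31 of 59, from 1 to 2 Mb) up to 22 Mb. The bin from 8 to 9 Mb holds the chorion genes Cp36, Cp38, Cp7Fa, Cp7Fb and Cp7Fc, which encode eggshell proteins. The nearest of the 438 regions lay 75280 bp from Cp38. Beyond 22 Mb, in the part next to the centromere, 2 of 39 BEAF intervals lacked Stwl (5.13%, 0.627 to 17.3).

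The widths of the regions fell into separate groups, which the plot of widths shows. The median width was 227.5 bp, and 10% of the regions were wider than 315.5 bp. A first group sat at the lower limit of the list, and 73 regions (16.7%) had exactly 147 bp, the narrowest width in the BEAF list. A second group lay close to 245 bp, and 108 regions (24.7%, 20.7 to 29.0) were 240 to under 260 bp wide. The same 20 bp of width held 4.65% (3.50 to 6.04) of X intervals with Stwl, 12.6% (10.2 to 15.3) of large-autosome intervals without Stwl and 3.36% (2.72 to 4.11) of those with Stwl. The large-autosome intervals without Stwl had a group at the same width, with 61 of 675 (9.04%) at 240 to 249 bp, 20 (2.96%) at 220 to 229 bp and 10 (1.48%) at 260 to 269 bp. Whether the group near 245 bp and the lower limit of 147 bp come from settings of the peak caller or from the DNA at the sites cannot be told from the lists. Wide regions were few: 7 of the 438 (1.60%) reached 500 bp, against 268 of the 1139 X intervals with Stwl (23.5%). A wider interval meets a Stwl interval more easily, and the group near 245 bp was chosen after its values were seen, so no test is given for widths.

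**Figure D1:**
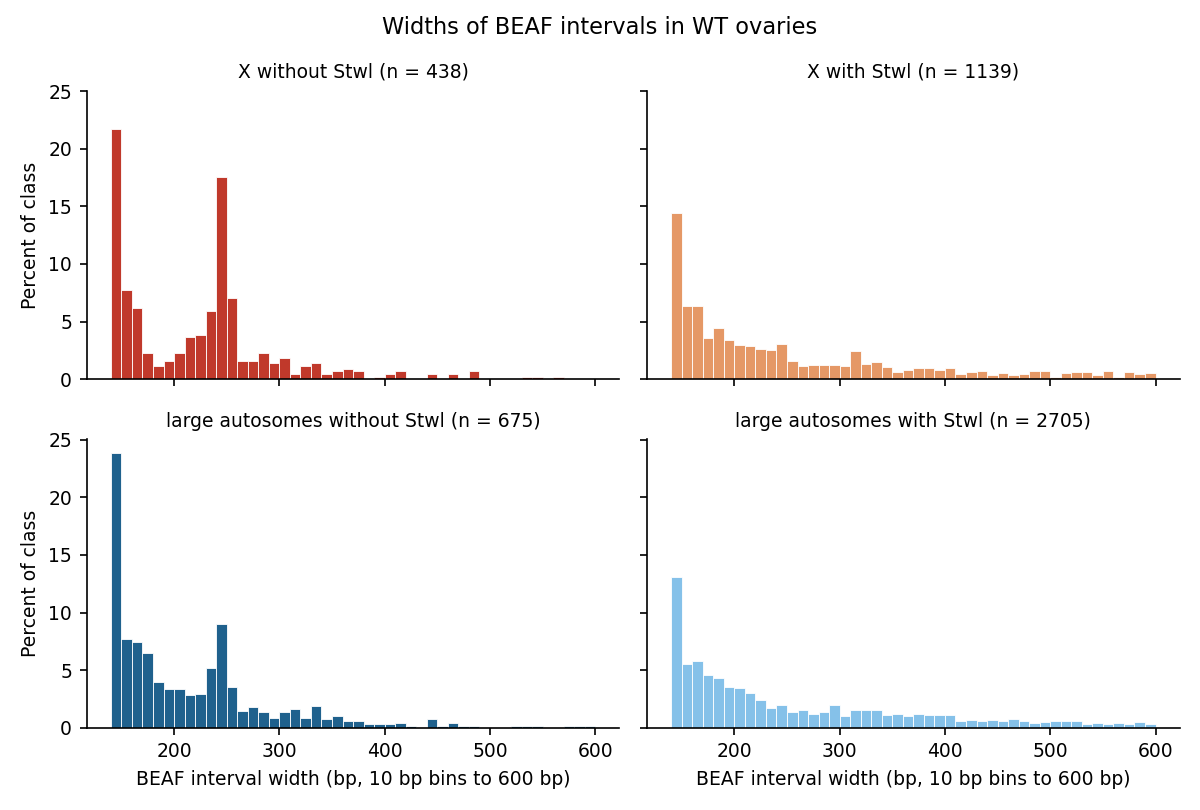
Widths of BEAF intervals in WT ovaries, in bins of 10 bp up to 600 bp (x axis), as percent of each class (y axis), for X and the large autosomes, without and with Stwl. Both classes without Stwl have a second group near 245 bp, with 24.7% of the regions on X at 240 to under 260 bp and 12.6% of the large-autosome intervals.

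The regions lay inside genes and away from gene ends about as often as the sequence of X itself does. Of the 438, 108 (24.7%, 20.7 to 29.0) came within 500 bp of either annotated end of a protein-coding gene, 263 (60.0%, 55.3 to 64.7) lay inside a gene farther from its ends, and 67 (15.3%, 12.1 to 19.0) lay outside genes and gene ends. Of those 67, 8 overlapped an annotated gene of another kind, such as a non-coding RNA gene. Protein-coding genes fill 71.8% of X, and 61.5% of X lies inside them and over 500 bp from a gene end, where 277 of the 438 regions (63.2%) had their centre. Windows of 500 bp around gene ends fill 14.3% of X, and 94 of the 438 regions (21.5%) had their centre in one. Of the X intervals with Stwl, 30.8% (28.1 to 33.6) lay inside a gene away from its ends, and of the large-autosome intervals without Stwl 42.2% (38.5 to 46.0). Over all main arms, 64.4% of BEAF intervals lay at a gene end.

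At gene ends the regions differed from both classes they were set against. Of the X intervals with Stwl, 736 of 1139 (64.6%, 61.8 to 67.4) were at a gene end, an odds ratio of 0.179 (0.140 to 0.230) for the regions without Stwl (adjusted p = 1.55e-46, Fisher's exact test, two-sided, Benjamini-Hochberg over 4 tests). The rule leaves out BEAF intervals that meet Stwl, so this p does not measure a difference apart from the rule. On X, 58.8% of the Stwl intervals of WT and 46.0% of those of bam GKD were themselves at a gene end. The part of this in the difference was not tested. Among large-autosome intervals without Stwl, chosen in the same way, 294 of 675 (43.6%, 39.8 to 47.4) were at a gene end, an odds ratio of 0.424 (0.325 to 0.553; adjusted p = 1.28e-10, Fisher's exact test). Among intervals with Stwl the shares were 64.6% on X and 77.2% (75.5 to 78.7) on the large autosomes. Whether the step between X and autosomes differs with and without Stwl was not tested. Gene end windows filled 15.3% of the large autosomes.

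**Figure D2:**
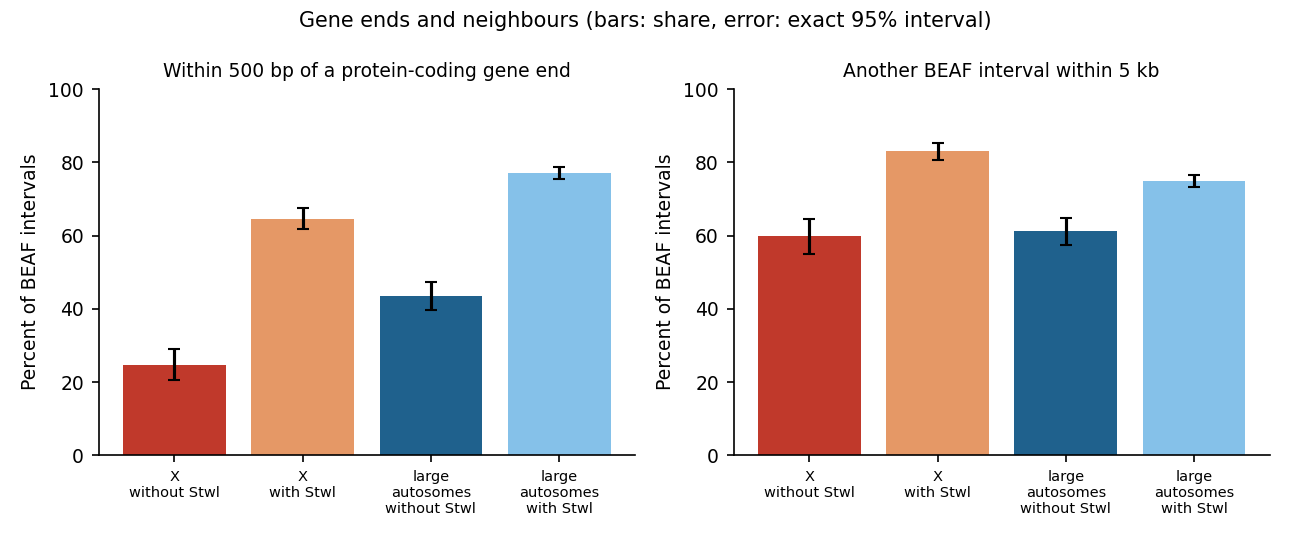
Share of BEAF intervals (y axis, percent) within 500 bp of a protein-coding gene end (left) and with another BEAF interval within 5 kb (right), in 4 classes; bars are shares and error bars exact 95% intervals. Of the 438 regions on X without Stwl 24.7% were at a gene end, the lowest of the 4 classes, while their share with a BEAF neighbour (59.8%) was close to that of the large autosomes without Stwl (61.2%).

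The regions stood farther from other BEAF intervals than the X intervals with Stwl did. Another BEAF interval lay within 5 kb of 262 of the 438 regions (59.8%, 55.1 to 64.4), against 946 of 1139 (83.1%, 80.7 to 85.2) with Stwl, an odds ratio of 0.304 (0.238 to 0.388; adjusted p = 1.03e-20, Fisher's exact test). Over all main arms the share was 73.7%. The comparison within X sets the regions against intervals that the rule left out, so its p does not measure a difference apart from the rule. BEAF intervals within 5 kb of each other both count as having a neighbour, so these counts are not independent. The median gap to the nearest other BEAF interval was 3302 bp without Stwl and 532 bp with it. Large-autosome intervals without Stwl had such a neighbour in 413 of 675 cases (61.2%, 57.4 to 64.9), and the odds ratio of 0.944 had an interval of 0.739 to 1.21 (adjusted p = 0.661, Fisher's exact test). With a limit of 2 kb this last comparison passed, at 42.7% against 50.7% (odds ratio 0.725, adjusted exact p = 0.00989). With BEAF intervals joined across gaps of up to 1000 bp it passed in the other direction (odds ratio 1.50, adjusted exact p = 0.0103). Among the 262 regions with a neighbour, the nearest one also lacked Stwl in 151 cases (57.6%) and had Stwl in 111. Of all BEAF intervals on X, 27.8% lacked Stwl. Close BEAF intervals can miss Stwl together under the rule, and this share was not tested. At the other extreme, 63 regions (14.4%) had no BEAF interval within 20 kb.

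The position of the regions by width is given as a description, since the width class was chosen after its values were seen. Width also bears on the chance of meeting a gene end window. Of the 141 regions 230 to under 270 bp wide, 18 (12.8%, 7.74 to 19.4) were at a gene end, against 41 of 166 (24.7%) under 180 bp, 15 of 55 (27.3%) at 180 to under 230 bp and 34 of 76 (44.7%) at 270 bp and over. Their median gap to the next BEAF interval was 8638 bp, against 1343 bp under 180 bp and 852.5 bp at 270 bp and over. Of these 141, 90 (63.8%) had their centre inside a protein-coding gene of 20 kb or more. Large-autosome intervals without Stwl showed the same order: 24 of 130 (18.5%) at 230 to under 270 bp were at a gene end, against 135 of 307 (44.0%) under 180 bp. Their median gap to the next BEAF interval was 15573 bp at 230 to under 270 bp and 1567 bp under 180 bp. Gene end shares were also lowest in this band among intervals with Stwl. They were 41.1% on X and 62.2% on the large autosomes, against 53.3% and 69.9% under 180 bp. The median gap with Stwl was 1890 bp against 627 bp on X, and 916.5 bp against 1134 bp on the large autosomes.

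Distances to Stwl ran over a wide range. The nearest Stwl interval of either list lay a median of 1835 bp away, with 34 regions closer than 100 bp, 174 (39.7%) closer than 1000 bp and 123 at 5000 bp or more. Stwl of bam GKD was the nearer list for 299 regions (68.3%) and Stwl of WT for 137, with equal gaps for the other 2. The median gap was 4920.5 bp to Stwl of WT and 2243 bp to Stwl of bam GKD, and the bam GKD list holds more intervals on X (2511 against 1666). Gene ends held 62 of the 174 regions within 1000 bp of Stwl (35.6%), 35 of 141 at 1000 to under 5000 bp (24.8%) and 11 of 123 at 5000 bp or more (8.94%). Widths of 230 to under 270 bp ran the other way over these 3 classes, at 24.7%, 31.9% and 43.1%. The distance is what the rule used, and many Stwl intervals of X are at gene ends (58.8% in WT, 46.0% in bam GKD). The shares by distance were not tested.

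**Figure D3:**
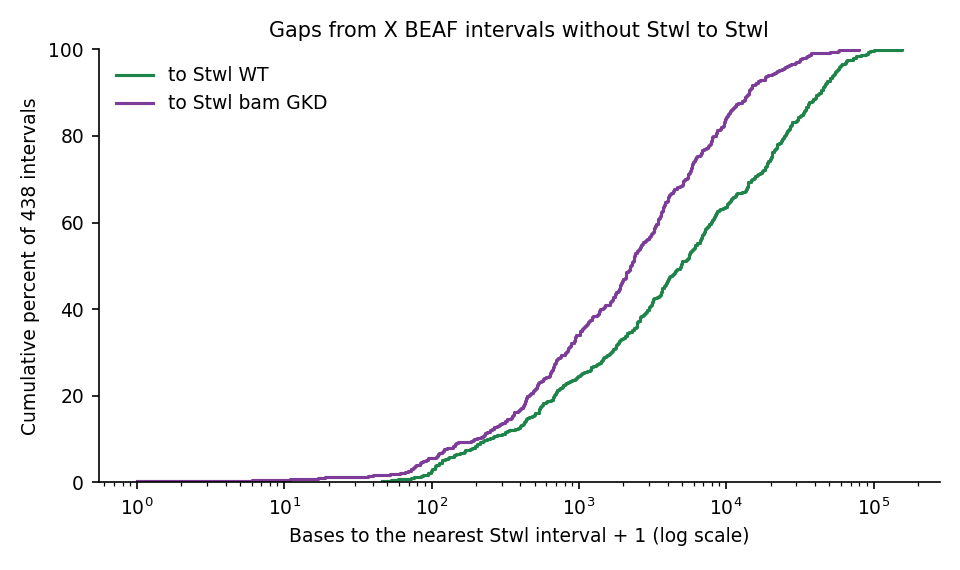
Cumulative percent (y axis) of the 438 X BEAF intervals without Stwl against the bases to the nearest Stwl interval, plus 1, on a log scale (x axis), for the Stwl lists of WT and bam GKD. The curve of bam GKD lies to the left, with a median gap of 2243 bp against 4920.5 bp for WT.

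At the edge of the rule, the 5 regions closest to Stwl had no base between them and a bam GKD interval in 1 case and gaps of 5 to 18 bp in the others. They lay at the end of mmd (X, 15972880 to 15973120, touching), which encodes an ADAM-family protein, inside CG45002 (5 bp), dnc, the cAMP phosphodiesterase gene dunce (10 bp), RhoGAP19D (16 bp) and mmd again (18 bp). None of the 5 was that close to Stwl of WT, where the gaps ran from 1365 bp at dnc to 34663 bp at CG45002. Just outside the rule were intervals that shared 2 to 17 bases with Stwl, at CARPB (2 bp), CG1440 (5 bp), CG43759 (6 bp), the kinase gene Tlk (11 bp) and rudhira (17 bp).

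The regions farthest from Stwl were narrow and mostly isolated. A region of 244 bp at 20064528 to 20064771 lay 79590 bp from Stwl of bam GKD and 82354 bp from Stwl of WT, and 1821 bp outside Dop2R, a dopamine receptor gene. A pair inside CG1504 (20308109 to 20308255 and 20319440 to 20319614) had its nearest Stwl interval 50690 bp and 57881 bp away. The next was a region of 242 bp at 4032783 to 4033024 in a gene-poor stretch, 42718 bp from the nearest protein-coding gene, CG43689, and 37825 bp from Stwl. A region of 217 bp inside Cph lay 37675 bp from Stwl.

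Long genes held a share of the regions near the share of X that they fill. Of the 198 X-linked protein-coding genes of 20 kb or more, 99 (50.0%) had at least 1 of the regions inside, against 150 of the 1999 shorter genes (7.50%). A long gene offers more room, and the long genes fill 43.2% of X. Centres of 210 of the 438 regions (47.9%, 43.2 to 52.7) lay in them, against 21.5% (19.2 to 24.0) of X intervals with Stwl and 26.7% (23.4 to 30.2) of large-autosome intervals without Stwl. Genes of that length fill 37.1% of the large autosomes. These shares were computed after the gene positions had been seen and were not tested.

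The 19 genes with 4 or more of the regions inside held 90 of the 438. They were picked by this count, all were 26489 bp or longer, and the share of X that they fill was not computed. They were led by kirre, which encodes an adhesion protein of the immunoglobulin superfamily that acts in myoblast fusion (X, 2740384 to 3134532), with 10. It was equalled by rg, or rugose, the gene of an anchor protein for protein kinase A (5085759 to 5254864), also with 10. CG15465 is annotated over the same bases as rg, so these genes cannot be told apart here. Mur2B, br, inc, Ten-a and Neto had 6 each, and br lies within the bases of Mur2B.

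In rg the regions had no Stwl of WT for long distances. Their widths ran from 147 to 272 bp, and 4 of the 10 had between 243 and 255 bp. The nearest Stwl interval of WT lay 17390 to 99971 bp away, and that of bam GKD 873 to 18425 bp away. The gene held 11 BEAF intervals, so all but 1 lacked Stwl. Stwl of WT had 1 interval in rg and Stwl of bam GKD had 10.

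In br, or broad, the gene of zinc-finger transcription factors of the ecdysone response (1575132 to 1664869), all 6 BEAF intervals lacked Stwl. Their widths, in order along the chromosome, were 256, 246, 147, 246, 235 and 264 bp. They began at 1580730, 1585676, 1598238, 1625415, 1642380 and 1647131. Stwl had 1 interval in br in each list, and the regions lay 5031 to 25441 bp from Stwl of WT and 5276 to 22241 bp from Stwl of bam GKD.

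In kirre, 10 of 17 BEAF intervals lacked Stwl. Stwl of bam GKD had 51 intervals in the gene and Stwl of WT had 12. The regions lay 223 to 9595 bp from the first and 213 to 45161 bp from the second, as the map of the 3 genes shows.

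**Figure D4:**
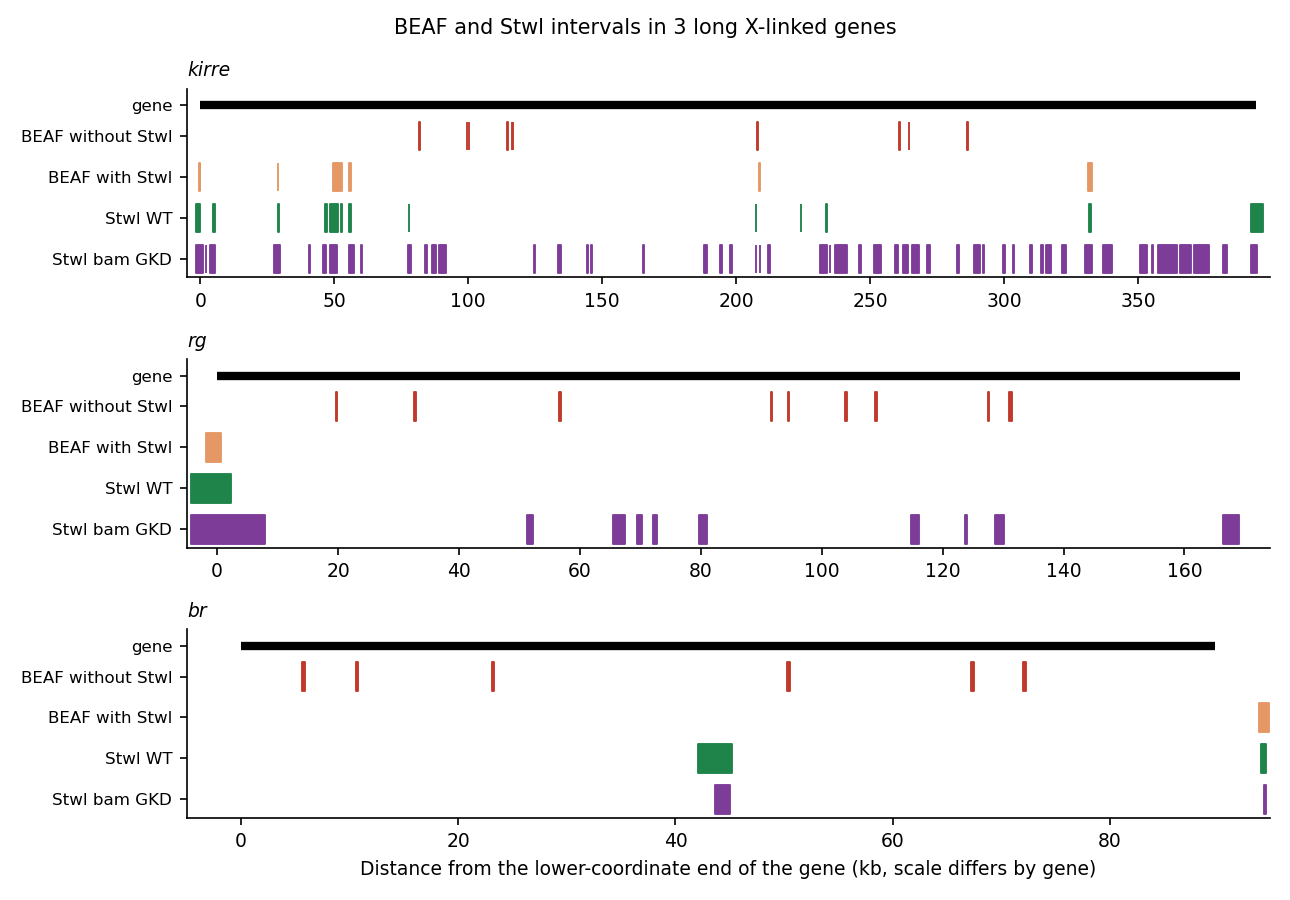
BEAF and Stwl intervals in kirre, rg and br, by distance from the lower-coordinate end of each gene (x axis, kb; the scale differs by gene), with 1 row for each kind of interval and the gene as a black bar; narrow intervals are widened by a thin outline. In rg and br the BEAF intervals without Stwl are scattered through the gene, and in kirre they lie between the intervals of Stwl in bam GKD.

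Several other genes with scattered regions encode proteins of nerve cells. They were picked after their values were seen, not by count alone, and were not tested as a group. CG14431, CG32700, CG32683 and X11Lbeta also had 4 regions each inside and are not described. SK, a calcium-activated potassium channel gene (5340236 to 5405138), had 4 BEAF intervals, all without Stwl, of 267, 243, 242 and 256 bp. They lay 14093 to 35769 bp from Stwl of WT and 2402 to 16389 bp from Stwl of bam GKD. Ten-a, a teneurin gene of synaptic partner matching (12043698 to 12335214), had 6 of 11 BEAF intervals without Stwl, of 147 to 269 bp. Neto, which encodes an auxiliary protein of glutamate receptors (13445903 to 13527282), had 6 of 6, of 148 to 306 bp.

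Other ion channel and receptor genes are given as examples, chosen after their values were seen. The sodium channel gene para (16455027 to 16533096) had 4 of 6 BEAF intervals without Stwl, of 228 to 373 bp. Sh, the Shaker potassium channel gene (17924307 to 18063247), had 3 of 3, of 244, 148 and 252 bp, and the next BEAF interval was at least 39576 bp from each. The calcium channel gene cac (11931280 to 11985087) had 3 of 5, of 244, 249 and 147 bp. The acetylcholine receptor gene nAChRalpha3 (8276200 to 8367169) had 3 of 4, of 149, 283 and 246 bp. In mamo, a maternal gene needed for meiosis (13846116 to 13990527), 5 of 11 lacked Stwl. All 5 were narrow, at 147 to 161 bp, and lay within 890 bp of Stwl of bam GKD. Among genes of signalling enzymes, rdgA, a diacylglycerol kinase gene, had 4 of 10 BEAF intervals without Stwl, Pde9, a phosphodiesterase gene, 4 of 5, and CanA-14F, a calcineurin gene, 4 of 7. The gene futsch, of a microtubule-associated protein at the synapse (1409069 to 1453686), held no Stwl interval of either list. Its 2 BEAF intervals, of 247 and 238 bp, lay 325 bp apart and at least 27281 bp from Stwl.

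The widest of the regions sat at or near gene ends in most cases, and a wider interval meets a gene end window more easily. The widest, 872 bp (4937223 to 4938094), lay at an end of CG44774, 110 bp from Stwl of bam GKD. Next came 864 bp at 1349115 to 1349978, shared by the ends of MTPAP, a mitochondrial poly(A) polymerase gene, and CG12773, with Stwl 6793 bp away in WT and 6811 bp away in bam GKD. A region of 759 bp (17852174 to 17852932) covered an end of CG32554 and came within 500 bp of Spt7, a subunit gene of the SAGA coactivator, and of Mco4, a multicopper oxidase gene. The 2 regions of 548 bp and 538 bp lay at the shared ends of regucalcin and Chrac-16, a chromatin remodelling subunit gene, and at those of Arfrp1 and AP-1gamma, an adaptor gene of clathrin coats. Those of 566 bp in rngo, which acts in the ring canals of the egg chamber, and of 487 bp in dnc lay away from gene ends.

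Some of these wide regions belonged to runs, taken as regions with less than 10 kb from one to the next. Of the 438, 212 stood alone by this measure, 112 formed pairs and the other 114 fell into 31 runs of 3 to 7. The measure passes over BEAF intervals with Stwl, which could lie between the regions of a run. Every run described here and below held such an interval, so these runs are not unbroken stretches without Stwl. The largest run had 7 regions over 8255 bp (13153184 to 13161438), at CG32645, CG4318, CG4332, Bap60, a subunit gene of the Brahma remodelling complex, CG12096 and Lgr4. Their widths were 449, 147, 644, 147, 483, 176 and 179 bp, and Stwl lay between 1240 and 3764 bp away. CG4318 and CG4332 each had regions at both ends and no Stwl interval of either list inside.

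The second run had 6 regions over 9818 bp (1506742 to 1516559), in inc, which encodes an adaptor of Cullin-3 known from sleep, and in Nmdar2, an NMDA receptor subunit gene that overlaps it. A run of 5 (1026766 to 1042046) lay in su(w[a]), a splicing regulator gene, and at ends of CG3021, of the replication helicase gene Cdc45 and of Rpp21, a subunit gene of ribonuclease P. Another 5 (9244202 to 9258791) lay at ends of Larp7, amx, Dsor1, the MAP kinase kinase gene, CG17754 and ric8a. The last 5 (17850479 to 17858349) lay at ends of CG15814, Spt7, CG32554, Srx and Arp8, an actin-related subunit gene of the INO80 remodelling complex.

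At 16 X-linked genes both ends had a region within 500 bp. In a short gene 1 region can count for both ends, as it did at CG13364 (447 bp), Chrac-16, CG12379, mRpS25 and Coa8 (1151 bp). The longest of the 16 genes were CG17754 (5534 bp), Pgd, which encodes an enzyme of the pentose phosphate pathway (3431 bp), ric8a (3035 bp), Dsor1 (2696 bp) and Ing3 (2374 bp). Pgd carried 3 regions, at 2144997 to 2145237, 2146694 to 2146840 and 2148912 to 2149058. Stwl of WT lay 123, 367 and 670 bp from them, and Stwl of bam GKD 2729, 3242 and 1024 bp.

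Fixed lists of genes were then looked up, without a test. On X, 305 of 2197 protein-coding genes (13.9%) had 1 of the regions inside or within 500 bp of an end. Of the 16 insulator protein genes, 1 is on X: dwg, whose product Zw5 is itself a boundary protein. Its region (2727714 to 2727932, 219 bp) lay at its lower-coordinate end, 4296 bp from Stwl of WT and 11000 bp from Stwl of bam GKD. None of the 4 X-linked genes of the dosage compensation list had one (mof, roX1, roX2 and Sxl), and the nearest regions were 20773 to 162280 bp away. Neither of the listed X-linked nucleoporin genes, Nup153 and Nup93-1, had one, with the nearest at 19260 bp and 7307 bp. Nup35, an X-linked nucleoporin gene that the list left out and that was added after its value was seen, had one 13 bp from its end (18648008 to 18648168, 161 bp), which also lay within 500 bp of an end of Rip11.

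Of the 41 X-linked ovary and maternal genes, 8 had at least 1 of the regions. Besides br these were snf, a splicing factor gene of sex determination (5310946 to 5311273, 328 bp), fs(1)Yb, a piRNA pathway gene of the somatic ovary (2720430 to 2720714, 285 bp), fs(1)h, a bromodomain protein gene (8040082 to 8040228, 147 bp), and egh, a glycosyltransferase gene of the egg chamber (2587770 to 2588005, 236 bp). The others were sgg, the GSK3 kinase gene (2677442 to 2677699, 258 bp), shi, the dynamin gene (15901247 to 15901393, 147 bp), and RpS6, a ribosomal protein gene (7900631 to 7900932, 302 bp). The regions of snf and egh lay outside these genes, 444 bp and 497 bp away, and inside TrxT and wds. Stwl was far from the region at fs(1)Yb, at 5414 bp in WT and 5419 bp in bam GKD, and close to that at egh, at 167 bp and 65 bp. The genes without one included ovo, otu, Sxl, fs(1)K10 and the yolk protein genes Yp1, Yp2 and Yp3.

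The last list, of cell cycle and related genes on X, had the regions at 4 of 9. They were sgg, the kinase gene Cdk7 (5307615 to 5307861, 247 bp), bys (7904009 to 7904281, 273 bp) and Smr, a nuclear corepressor gene with 3 (398, 220 and 299 bp). The region of bys lay 365 bp outside it, inside dpr14. Genes near each other can share a region, and br and Smr are long, so these counts say nothing about the lists as groups. None of the 6 X-linked eggshell genes on the chorion list had one, although a region lay 658 bp from Vml.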

How the data were processed

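Each of the 3 deposited files gives chromosome, start and end of intervals on dm6 and no score or count, per the file headers. According to the submitters' processing notes, the tools were Bowtie2 2.2.8, MACS2 2.1.0, SAMtools 1.9, deepTools 3.2.1, Trim Galore 0.6.6 and FastQC 0.11.8. The role of each tool, the control library and any pooling of duplicates were not given in the sources used here, and depth is unknown, so the lists may differ in sensitivity. No gap within the BEAF list was under 76 bp, while in each Stwl list none was under 1001 bp.

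Coordinates were made 1-based, and intervals on Y were dropped (9 of BEAF). Large autosomes are arms 2L, 2R, 3L and 3R. Genes came from the RefSeq table of Release 6 plus ISO1 MT, which gives no strand. Gaps count the bases between intervals, and arms were measured to the last annotated gene or interval. Python 3.11.15, pandas 2.3.3 and scipy 1.17.1 were used, and the steps were tested on simulated data. Shares have exact Clopper-Pearson and odds ratios Woolf intervals, both at 95%, and the threshold of adjusted p was 0.05. The planned tests of CGATA and DRE motifs were not run.

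Samples were grouped by title. The members and lists were chosen with earlier results of these data known. Named genes were those at the 10 widest regions, the 5 farthest from Stwl, the 5 just inside and 5 just outside the rule, the 5 largest runs, list genes with a region and 5 genes with regions at both ends. Some of the genes with the most regions inside, and examples with fewer such as Sh, cac, nAChRalpha3 and futsch, were added after their values were seen. So was the class near 245 bp.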

Additional observations from a re-analysis of the deposited data

How the results depend on the processing

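Both comparisons of gene ends kept their direction and stayed past the threshold under all 11 alternatives. The odds ratios were 0.0966 to 0.228 against X intervals with Stwl and 0.389 to 0.488 against large-autosome intervals without Stwl. The first of these sets the regions against intervals that the rule left out, so it is not separate from the rule. The same holds for the comparison of neighbours within X. The comparison of neighbours within X also kept its direction and stayed past the threshold under its 10 alternatives (0.194 to 0.417). That against the large autosomes did not: the odds ratio of 0.944 turned to 1.12 for intervals at least 1000 bp from Stwl, 1.05 with the Stwl WT list alone, 1.04 with a gap of 10 kb, 1.10 without intervals of 230 to under 270 bp and 1.50 with joined intervals, and was 0.725 and past the threshold with a gap of 2 kb. Of these only the joined intervals also passed in the opposite direction, and the cause was not tested. The number of regions fell from 438 to 264 at 1000 bp from Stwl and to 207 with the wider 50% of BEAF intervals, as fewer intervals qualify. Over its 8 alternatives it ran from 207 to 584, the highest with the Stwl WT list alone. Under 270 bp, joined intervals and the set without 230 to under 270 bp were chosen after seeing the data. No paired analysis was possible because each group has 1 list and the labels give no replicate numbers. The CGATA and DRE alternatives were not run.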
